A study of Capra hircus with 4 samples.

Results

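The genes for the 4 ligands and the 2 receptors of the platelet-derived growth factor (PDGF) family were followed across the cell types of the goat ovary. PDGFA, PDGFB, PDGFC, PDGFD, PDGFRA and PDGFRB were found by symbol in each of the 4 deposited count matrices, so that all 6 members were measured among 28944 genes. The ovaries came from 2 Du'an goats, a breed chosen for a litter size of 1, and 2 Nubian goats, chosen for a litter size of 3 or more over past lambings. All 4 goats (Capra hircus) were about 3 years old and had received an intravaginal device with 300 mg of progesterone for 17 days to bring them into estrus together, without hormones for superovulation. Each goat gave 1 library of nuclei, so a breed is known here from 2 animals only. Each RNA molecule was tagged with a unique molecular identifier (UMI), and values below are UMI counts, or the CPM of a gene, its UMIs scaled to a common library total, in the summed nuclei of a cell class and goat. No per-length scale was used for these tag counts, so levels are compared between classes for the same gene and never between genes.

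PDGF ligands are secreted dimers that bind receptor tyrosine kinases on neighbouring cells. PDGF-A and PDGF-C act mainly through the receptor encoded by PDGFRA, PDGF-D mainly through that encoded by PDGFRB, and PDGF-B through both. In blood vessels endothelial cells are the textbook source of PDGF-B and pericytes its textbook target, while in the ovary the family is known from exchange between granulosa cells and the theca and stroma around the follicle.

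The 4 libraries held 9364 to 16988 nuclei and 40573246 to 71613892 UMIs. After the filter on depth and mitochondrial UMIs and the removal of called doublets, 44717 of 48332 nuclei and 74.1% of all UMIs remained. Of the UMIs of each member, 62.4% (PDGFRA) to 82.1% (PDGFD) were kept. Between 54 and 131 nuclear barcodes were shared by any 2 libraries. Doublet calling marked 155 nuclei in all, 154 of them in Du'an replicate 2, too few for a working caller. The marked nuclei were left out. Clustering without the 6 members and the pathway genes gave 23 clusters in 17 classes, of which 14 were named from marker lists ("-like") and 3 (clusters 1, 4 and 9) were not. Cluster 1 was shallow, at a median of 858 UMIs per nucleus, and carried 8 of 8 smooth muscle, 5 of 7 fibroblast and 4 of 6 measured stromal markers. Smooth muscle was its leading list, and only a rule on shallow clusters withheld that name. The smooth muscle-like class raised 8 of 8 smooth muscle markers and, as its second list, 6 of 7 fibroblast markers. Its mean log2 difference was 4.22 for the first list and 3.12 for the second. The pericyte-like class raised 6 of 8 pericyte markers and, as its second list, 8 of 8 smooth muscle markers. Its mean log2 differences were 3.91 and 2.77. Assigning nuclei singly by their markers named 15 pericytes, too few for a sum. Cluster 4 had AJAP1 among its leading genes, and held 1997 and 77 nuclei of the Du'an and 37 and 2164 nuclei of the Nubian goats. The shallow cluster 9 mixed markers of several types. No class was named stromal or cumulus granulosa. The classes were uneven between goats: mural granulosa-like nuclei (6390) were absent in Du'an replicate 1, ciliated nuclei reached 20 in 2 goats only, and 494 of 519 fibroblast-like nuclei came from Nubian replicate 1, so fibroblast-like levels below rest on 1 goat and were not tested. These differences in depth and make-up stand beside all class comparisons, and their part in them was not tested.

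**Figure D1:**
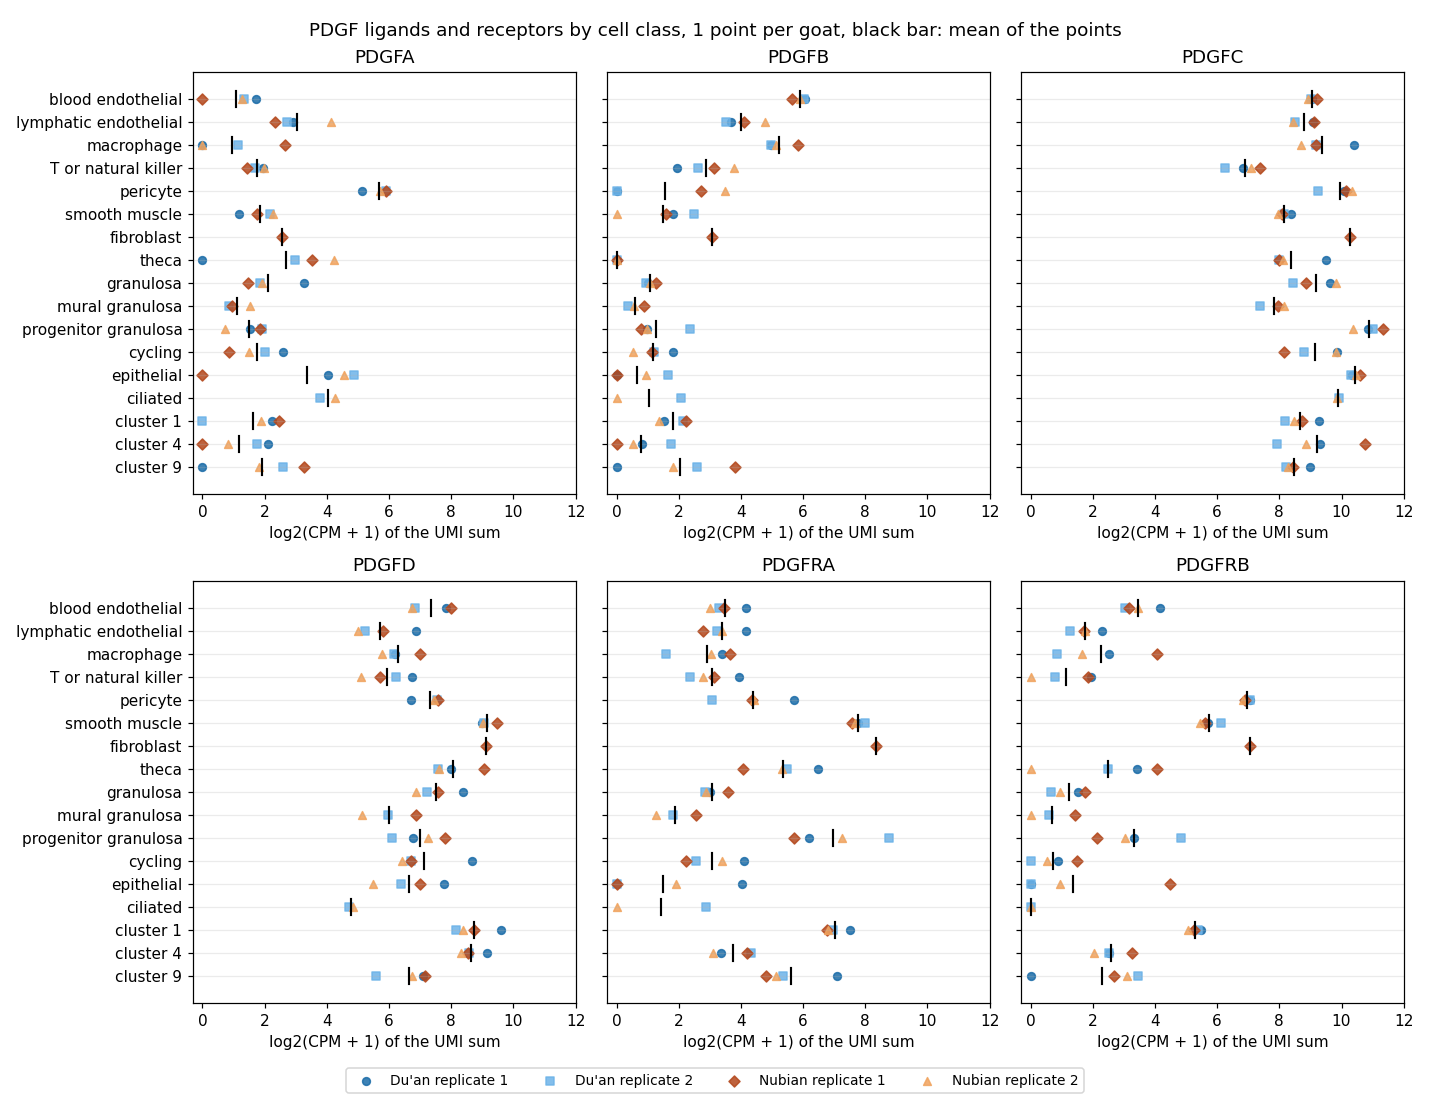
Level of each member in each cell class, as log2(CPM + 1) of the UMI sum, with 1 point per goat (blue for Du'an, orange and brown for Nubian) and a black bar at the mean of the points. PDGFB stood high in blood endothelial-like (48.5 to 65.8 CPM) and macrophage-like nuclei, PDGFRB in pericyte-like nuclei (112 to 133 CPM), PDGFRA and PDGFD in smooth muscle-like nuclei, and PDGFC was present in every class.

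In 1 fit of edgeR's quasi-likelihood test over 62 sums and 16091 genes, each class was compared with the average of all other classes. The goat entered as a blocking factor, and p-values were adjusted by Benjamini-Hochberg over all genes. The spread of a gene was pooled over all classes, and the sums of a goat were taken as independent. The standard error (SE) given with any fold was derived from the fold and the F value of its test, so it is approximate. Since many genes differ between cell types, counts of members have to be read against the share of all genes called. In smooth muscle-like nuclei 3 of 6 members were called higher, against 18.4% of all genes, and 1 lower, against 6.36%. The same count of 3 was called higher in pericyte-like nuclei (7.25% of all genes), in cluster 1 (12.3%, with none lower against 2.16%) and in progenitor granulosa-like nuclei (18.4%, with 1 lower against 11.3%). One ligand, PDGFB, was the sole member called higher in blood endothelial-like (18.7%), lymphatic endothelial-like (16.6%), macrophage-like (30%) and T or natural killer-like nuclei (29.0%). Members called lower numbered 4 in mural granulosa-like nuclei (14.0% of all genes), 3 in macrophage-like (20.3%) and 3 in T or natural killer-like nuclei (22.4%), and 1 in blood endothelial-like (8.82%) and in lymphatic endothelial-like nuclei (8.46%).

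Of the other classes, epithelial-like nuclei had 2 members called higher (15.5% of all genes) and 2 lower (9.94%), ciliated nuclei 2 higher (16.0%) and 1 lower (9.73%), and cluster 9 had 2 higher (29.2%) and 1 lower (18.0%). In theca-like (8.02% of all genes), granulosa-like (13.1%) and cycling nuclei (15.3%) 1 member was called lower and none higher, at shares of 7.86%, 20.6% and 20.3% of all genes called higher. Cluster 4 had 1 member higher (13.2%). A class at 0 in every goat sets a limit on these counts. PDGFB had no UMI in theca-like and PDGFRB none in ciliated sums, as was true in some class of 27.6% of all genes tested, and for such a gene the mean of the other classes has no lower bound, so that no class other than the one at 0 can be called lower. For PDGFB and PDGFRB, lower calls were therefore taken from a fit without the theca and ciliated sums, added after the values were seen. The size of a higher fold of these 2 genes also depends in part on the class at 0. In cluster 9 the PDGFB fold was 1.24, and 0.54 without those sums.

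**Figure D2:**
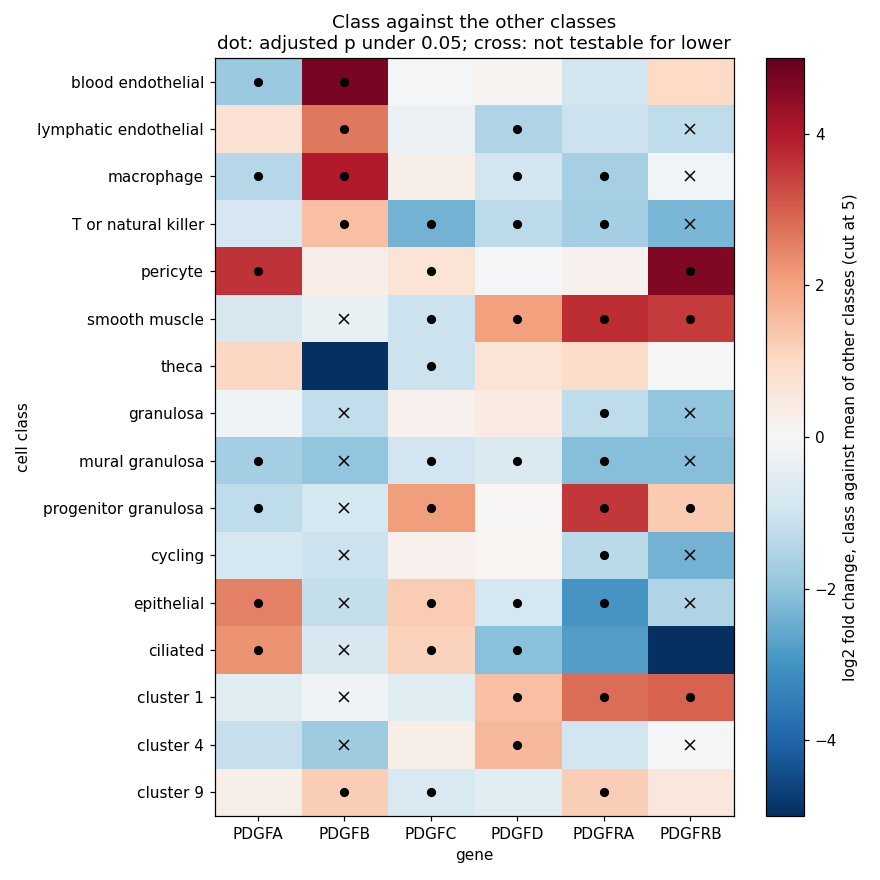
Log2 fold change of each member in each class against the mean of the other classes (colour, cut at 5), with a dot where the adjusted p was under 0.05 and a cross where a lower call was not possible because another class was at 0. The strongest red fields are PDGFB in blood endothelial-like (4.74) and PDGFRB in pericyte-like nuclei (4.64). Their size depends in part on another class at 0 in the mean. The darkest blue fields, PDGFB in theca-like and PDGFRB in ciliated nuclei, are classes at 0, where the fitted fold is no measure of size.

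PDGFB, a ligand of both receptors, had its highest levels in blood endothelial-like nuclei and was called higher in 5 of 16 classes tested. In blood endothelial-like nuclei its level was 65.8 and 63.8 CPM in the 2 Du'an goats and 48.5 and 58.1 CPM in the 2 Nubian goats. Macrophage-like nuclei held 30.5, 30.6, 56.0 and 33.8 CPM in the same order, and lymphatic endothelial-like nuclei 11.7, 10.5, 16.3 and 26.1 CPM. All 4 goats had more PDGFB in macrophage-like than in lymphatic endothelial-like nuclei, without overlap of the ranges, while blood endothelial-like nuclei exceeded macrophage-like ones in 3 of 4 goats. Against the other classes PDGFB rose by a log2 fold change of 4.74 ± 0.23 (SE) in blood endothelial-like (adjusted p = 1.37e-24), 3.98 ± 0.26 in macrophage-like (1.42e-19) and 2.63 ± 0.34 in lymphatic endothelial-like nuclei (3.82e-09). Blood endothelial-like nuclei were 4.07% of those kept and held 40.0% of all PDGFB UMIs, and macrophage-like nuclei 23.2%.

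A smaller PDGFB difference was seen in T or natural killer-like nuclei, at 2.88 to 12.8 CPM and a log2 fold change of 1.51 ± 0.39 (adjusted p = 0.000917), which fell to 0.93 (adjusted p = 0.0805) without Nubian replicate 2. In cluster 9 the call (1.24, adjusted p = 0.0316) was lost without Du'an replicate 1 (1.08, adjusted p = 0.0855), without Nubian replicate 1 (0.25, adjusted p = 0.734) and without the theca and ciliated sums (0.54, adjusted p = 0.292). Granulosa-like nuclei lay at 0.909 to 1.44 CPM and theca-like nuclei at 0 in all 4 goats, where 3 UMIs would have been 6.95 to 29.5 CPM. Without the theca and ciliated sums, PDGFB was lower in 5 of 14 classes, with log2 fold changes of -2.42 in mural granulosa-like (16.8% of all genes called lower in that fit), -2.16 in cluster 4 (13.3%), -1.65 in granulosa-like (14.7%), -1.59 in cycling (19.2%) and -1.32 in progenitor granulosa-like nuclei (12.7%).

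PDGFA, a ligand of the PDGFRA receptor, was sparse and highest in pericyte-like nuclei. Its level there was 34.1 and 59.3 CPM in Du'an goats and 58.7 and 50.9 CPM in Nubian goats, from 5 to 21 UMIs per goat. Epithelial-like nuclei followed with 15.5, 28.0, 0 and 22.6 CPM, the 0 coming from 33 nuclei of Nubian replicate 1, and in all 4 goats the pericyte-like level was above the epithelial-like one without overlap. PDGFA rose by 3.63 ± 0.44 in pericyte-like (adjusted p = 1.84e-09), 2.51 ± 0.41 in epithelial-like (1.84e-06) and 2.25 ± 0.70 in ciliated nuclei (0.0109, 2 goats). Although granulosa-like nuclei contributed 26.7% of PDGFA UMIs, they were 19.8% of the nuclei and their level of 1.74 to 8.57 CPM did not pass the test (-0.21 ± 0.34, adjusted p = 0.749).

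Lower PDGFA was called in mural granulosa-like (-1.71, adjusted p = 0.00355), blood endothelial-like (-1.84, 0.0181), progenitor granulosa-like (-1.27, 0.0253) and macrophage-like nuclei (-1.44, 0.0428), each from a few UMIs. Each of these 4 calls was lost when 1 of several goats was left out. For mural granulosa-like nuclei the adjusted p was 0.0822 without Du'an replicate 2 and 0.0508 without Nubian replicate 1, and for blood endothelial-like nuclei 0.0658 and 0.13 in the same order. In progenitor granulosa-like nuclei it was 0.123 without Du'an replicate 1 and 0.277 without Nubian replicate 2, and the estimate turned to 0.29 (0.797) with nuclei assigned singly by their markers. In macrophage-like nuclei the value moved to -2.53 (adjusted p = 0.00442) without Nubian replicate 1, and the adjusted p was 0.107 without Du'an replicate 1, 0.181 without Du'an replicate 2 and 0.237 without Nubian replicate 2.

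PDGFC, whose protein must be cleaved before it can activate the PDGFRA receptor, had UMIs in every sum of a class and goat, as PDGFD did. Progenitor granulosa-like nuclei, a class led by RUNX2, had 1831 and 2057 CPM in Du'an goats and 2591 and 1329 CPM in Nubian goats. The name of this class rests on the progenitor list alone, of which 5 of 6 markers were raised, while 0 of 10 granulosa, 0 of 6 mural and 0 of 5 cumulus granulosa markers were. Its nuclei held 30.3% of all PDGFC UMIs in 6.43% of the nuclei, and their log2 fold change was 2.09 ± 0.18 (adjusted p = 1.48e-14). Epithelial-like nuclei came next at 1298, 1260, 1537 and 1424 CPM (1.26 ± 0.20, adjusted p = 9.54e-07), below progenitor granulosa-like nuclei in 3 of 4 goats but with overlapping ranges. Ciliated nuclei had 923 and 969 CPM (1.14 ± 0.28, adjusted p = 0.00128).

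In pericyte-like nuclei PDGFC lay at 1074, 600.0, 1124 and 1284 CPM and was called higher (0.70 ± 0.22, adjusted p = 0.0242), a call lost without Du'an replicate 1 (adjusted p = 0.0724), Nubian replicate 1 (0.0627) or Nubian replicate 2 (0.227). The lowest PDGFC levels were those of T or natural killer-like nuclei, at 75.9 to 166 CPM (-2.37 ± 0.28, adjusted p = 1.18e-10). Smooth muscle-like (249 to 332 CPM, -1.07, adjusted p = 0.000495) and theca-like nuclei (-1.07, 0.00188) were also lower, the former not with nuclei assigned singly by their markers (-0.36, adjusted p = 0.402). The theca-like level was 717 CPM in Du'an replicate 1 and 250 to 275 CPM in the other goats. Mural granulosa-like nuclei were lower by -0.96 (adjusted p = 0.00446), or -0.88 (0.0553) without Du'an replicate 2. In cluster 9 the lower call (-0.77, adjusted p = 0.00756) was lost with another library scaling (-0.31, adjusted p = 0.368).

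PDGFC was also looked at within classes. Of its UMIs in progenitor granulosa-like nuclei, 84.6% lay in the 757 of 2876 nuclei that held 10 or more. In mural granulosa-like nuclei the share was 9.14%. Such a share rises with the level and depth of a class, so it does not by itself measure unevenness. The 757 nuclei were deep, with a median of 8363 UMIs of all genes against 4803 in the class. The macrophage-like class joined 2 clusters that differed in depth and in PDGFC. In cluster 15, with a median of 3301 UMIs, PDGFC was at 1706 and 645 CPM in the Du'an goats, and at 647 and 640 CPM in Nubian goats. In cluster 17, with a median of 824.5 UMIs, it was at 92.3, 150, 223 and 230.1 CPM, lower in each of the 4 goats.

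PDGFD, which acts mainly through the PDGFRB receptor, had its highest mean in smooth muscle-like nuclei, at 511 and 528 CPM in Du'an goats and 711 and 517 CPM in Nubian goats (2.04 ± 0.20, adjusted p = 5.53e-13). Cluster 4, at 573, 383, 372 and 316 CPM (1.60 ± 0.21, adjusted p = 2.39e-08), and cluster 1, at 784, 284, 425 and 334 CPM (1.5 ± 0.21, adjusted p = 6.8e-08), overlapped with each other. In Du'an replicate 1 both exceeded the smooth muscle-like level, and the difference between smooth muscle-like nuclei and cluster 1 did not pass the test (0.51, adjusted p = 0.611). Together these 3 classes were the ones in which PDGFD was called higher. Fibroblast-like nuclei of the 1 goat had 551 CPM. Theca-like nuclei reached 190 to 532 CPM without passing the test (0.66 ± 0.25, adjusted p = 0.0619).

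PDGFD was lower in ciliated (-2.08, adjusted p = 0.00129), lymphatic endothelial-like (-1.51, 3.12e-05), T or natural killer-like (-1.30, 8.57e-05) and macrophage-like nuclei (-0.97, 0.00189). The 4 goats had 30.8 to 116 CPM in lymphatic endothelial-like and 33.5 to 107 CPM in T or natural killer-like nuclei. Calls in epithelial-like (-0.87, adjusted p = 0.0326) and mural granulosa-like nuclei (-0.73, 0.0421) were weak. Both were lost without Du'an replicate 2 (adjusted p = 0.0754 and 0.124), Nubian replicate 1 (0.0996 and 0.0663) or Nubian replicate 2 (0.279 and 0.393), and with nuclei assigned singly by their markers the mural granulosa-like estimate turned to 0.20 (0.816).

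PDGFRA, the receptor for PDGF-A and PDGF-C, was called higher in smooth muscle-like and progenitor granulosa-like nuclei and in clusters 1 and 9. Of its UMIs, 35.4% came from progenitor granulosa-like and 22.3% from smooth muscle-like nuclei, and the pericyte-like estimate of 0.23 did not pass the test (adjusted p = 0.984). Smooth muscle-like nuclei had 219 and 256 CPM in Du'an goats and 190 and 204 CPM in Nubian goats, and cluster 1 had 181, 123, 107 and 112 CPM. The level in smooth muscle-like nuclei rose by 3.68 ± 0.23 against the other classes (adjusted p = 2.39e-20) and that in cluster 1 by 2.79 ± 0.25 (8.68e-14). Fibroblast-like nuclei of Nubian replicate 1 had 321 CPM, above any smooth muscle-like sum. The smooth muscle-like class and cluster 1 also raised most of the fibroblast markers. In cluster 9 the level was 136 CPM in Du'an replicate 1 and 27.0 to 40.0 CPM in the others, and the call (1.22, adjusted p = 0.00392) was lost without that goat (0.79, adjusted p = 0.0689).

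Progenitor granulosa-like nuclei had more PDGFRA than the other classes as well, with 72.3 and 431 CPM in Du'an goats and 51.3 and 150 CPM in Nubian goats, a spread as wide as the mean (176 ± 175, SD, n = 4). Their log2 fold change was 3.53 ± 0.24 (adjusted p = 1.11e-18), 2.93 without Du'an replicate 2 and 4.21 without Nubian replicate 1. This SE and p rest on a spread pooled over all classes, not on the spread of these 4 levels. In this class 458 of 2876 nuclei had a PDGFRA UMI, and 67 of them, with 10 or more UMIs each, held 58.8% of its PDGFRA UMIs. Those 67 nuclei came from all 4 goats, with 9 and 26 nuclei from Du'an and 3 and 29 from Nubian goats, and held 32.8%, 76.0%, 31.9% and 64.2% of the PDGFRA UMIs of the class. Without them the level over all goats was 55.5 CPM. In smooth muscle-like nuclei 775 of 2606 had a UMI and only 4 had 10 or more, with 4.40% of the UMIs.

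The 67 nuclei, chosen by the PDGFRA count itself and described without a test, had a median of 10708 UMIs against 4803 in the class, and 8.96% of them were among the tenth of nuclei with the highest doublet scores. Set beside the progenitor granulosa-like nuclei without a PDGFRA UMI, their sums were higher in 6 of 7 fibroblast markers, 5 of 6 stromal, 4 of 6 progenitor granulosa, 4 of 8 smooth muscle, 3 of 8 pericyte, 2 of 6 theca, 3 of 10 granulosa and 2 of 6 mural granulosa markers. Summed over the list, fibroblast markers were at 962 against 150.0 CPM, smooth muscle markers at 578 against 1091 CPM and granulosa markers at 1757 against 2520.0 CPM. Higher sums were also those of progenitor granulosa (6404 against 3295 CPM), stromal (2144 against 1582) and pericyte markers (80.4 against 49.7). So were mural granulosa (1045 against 784, with INHBA at 561 against 187), theca (332 against 165, mostly CYP11A1 at 210 against 64.2) and blood endothelial markers (172 against 35.6, mostly ERG). T or natural killer (69.5 against 36.5), ciliated (66.7 against 48.2), epithelial (34.1 against 28.1), B cell (9.54 against 5.78) and oocyte markers (8.17 against 4.93) were higher in sum too. Those of lymphatic endothelial (53.1 against 128), macrophage (5.45 against 11.0), cycling (34.1 against 34.5) and Schwann cells (0 against 0.0771) were lower. Cumulus granulosa markers were lower in sum, at 233 against 381 CPM. All these sums pooled the nuclei of the 4 goats, which entered them unequally. Du'an replicate 2 gave 26 of the 67 nuclei, but 197 of the 2876 nuclei of the class. Differences between goats were therefore not separated from differences by PDGFRA count, and no comparison within a goat was made. The single genes named in this paragraph were chosen after their values were seen. Of the fibroblast list, which holds genes of matrix proteins, FBN1 was at 786 against 91.3 CPM and COL5A1 at 76.3 against 9.48 CPM, while COL1A1 was lower, at 8.17 against 12 CPM. The granulosa marker FSHR was at 247 against 820 CPM, while NR5A2 was at 627 against 641 CPM and FST was higher, at 87.2 against 64.4 CPM. The progenitor marker ENPP1 was at 1798 against 535 CPM, while CCND3 was lower, at 191 against 245 CPM.

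**Figure D3:**
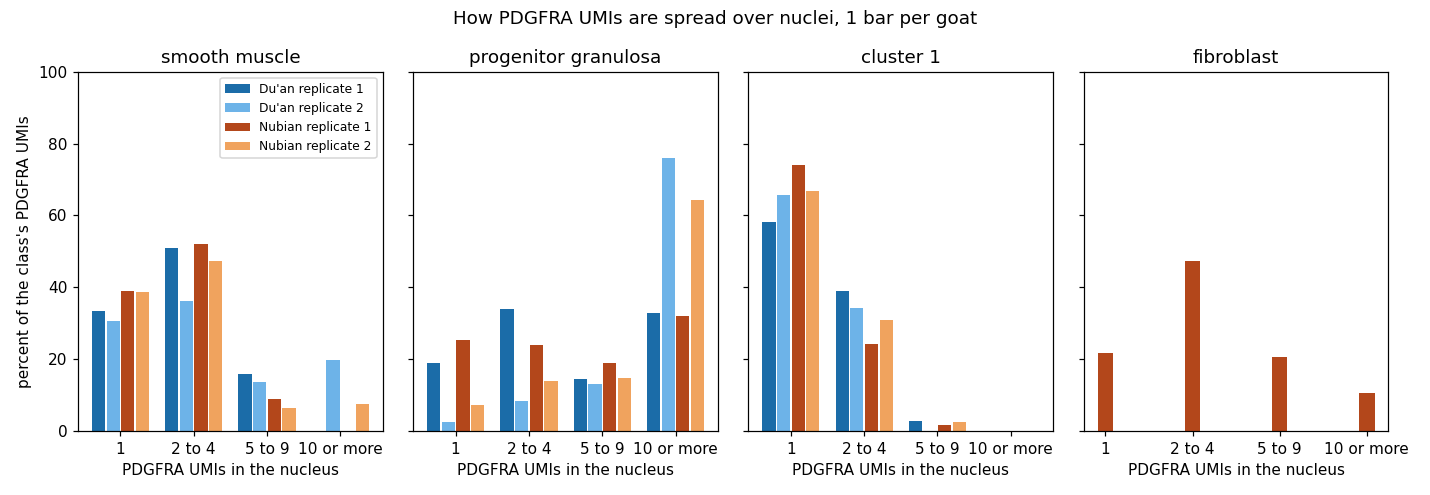
Percent of the PDGFRA UMIs of a class that lay in nuclei with 1, 2 to 4, 5 to 9, or 10 or more PDGFRA UMIs, with 1 bar per goat in smooth muscle-like, progenitor granulosa-like, cluster 1 and fibroblast-like nuclei (the last from Nubian replicate 1). Nuclei with 10 or more UMIs held 31.9% to 76.0% of the UMIs in progenitor granulosa-like nuclei and none in cluster 1.

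Lower PDGFRA was called in 6 classes, among them mural granulosa-like nuclei at 2.50, 4.91 and 1.39 CPM in the 3 goats that had them (-2.13 ± 0.43, adjusted p = 6.64e-05). The others were epithelial-like (-2.94), T or natural killer-like (-1.69), macrophage-like (-1.66), cycling (-1.36) and granulosa-like nuclei (-1.29), with adjusted p of 0.00153, 0.00202, 0.00259, 0.00468 and 0.00207. Without Du'an replicate 2 no lower call was possible in any of the 6 (adjusted p = 1), because ciliated nuclei, then from 1 goat, were at 0. Without Nubian replicate 2 the calls in epithelial-like (adjusted p = 0.0626) and granulosa-like nuclei (0.05) were lost, and without Nubian replicate 1 that in cycling nuclei (0.121). When the theca and ciliated sums were left out, PDGFRA was lower in 8 of 14 classes, these 6 and both endothelial-like classes. When single nuclei were instead assigned by their markers, the PDGFRA estimates turned to 0.25 in granulosa-like (adjusted p = 0.901) and 0.80 in mural granulosa-like nuclei (0.448).

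PDGFRB, the receptor through which pericytes respond to PDGF-B, stood highest in pericyte-like nuclei among classes with all 4 goats. The levels were 131, 133, 117 and 112 CPM in pericyte-like, 51.2, 68.9, 47.9 and 42.7 CPM in smooth muscle-like and 43.5, 40.5, 37.0 and 32.3 CPM in cluster 1 nuclei. Every goat kept this order, and the pericyte-like range did not overlap the smooth muscle-like one. Against the other classes the log2 fold change was 4.64 ± 0.39 (adjusted p = 8.89e-15) in pericyte-like, 3.51 ± 0.29 (4.95e-15) in smooth muscle-like and 2.94 ± 0.31 (4.03e-11) in cluster 1 nuclei, or 5.32, 4.26 and 3.70 without Nubian replicate 1. Fibroblast-like nuclei had 133 CPM in the 1 goat.

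In progenitor granulosa-like nuclei PDGFRB was 27.3 CPM in Du'an replicate 2 and 3.35 to 9.08 CPM in the others, and its call (1.29 ± 0.39, adjusted p = 0.00848) was lost without that goat (0.55, adjusted p = 0.432) or without Nubian replicate 2 (1.29, adjusted p = 0.0631) and moved to 2.30 without Nubian replicate 1. Blood endothelial-like nuclei had 7.21 to 16.8 CPM (1.01 ± 0.47, adjusted p = 0.109). Without the theca and ciliated sums, PDGFRB was lower in 5 classes: cycling (-2.90), T or natural killer-like (-2.80, 25.4% of all genes called lower in that fit), mural granulosa-like (-2.55), granulosa-like (-2.37) and lymphatic endothelial-like nuclei (-1.71, 8.95%). The ciliated sums of both goats were at 0, where 3 UMIs would have been 6.89 and 9.50 CPM.

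Direct contrasts set neighbouring classes side by side. Blood endothelial-like nuclei, against lymphatic endothelial-like ones, had more PDGFB (1.99 ± 0.34, adjusted p = 1.03e-05), PDGFD (1.55 ± 0.35, 0.000648) and PDGFRB (2.15 ± 0.67, 0.0203) and less PDGFA (-2.41 ± 0.74, 0.0174). These were 3 of 6 members higher and 1 lower, where 7.25% and 7.17% of all genes were called. PDGFRB lost its call without Du'an replicate 1 (adjusted p = 0.141) or Nubian replicate 2 (0.0708), and PDGFA without Du'an replicate 2 (0.082) or Nubian replicate 2 (0.0928). Against macrophage-like nuclei, the other main site of PDGFB, the PDGFB difference was 0.72 ± 0.31 (adjusted p = 0.0617), and PDGFD was the 1 member called higher (1.04 ± 0.34, adjusted p = 0.0104, with 17.1% of all genes called higher and 20.4% lower).

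Pericyte-like and smooth muscle-like nuclei, which both raised 8 of 8 smooth muscle markers, differed in members in both directions. PDGFA (4.18 ± 0.61, adjusted p = 8.78e-07) and PDGFC (1.67 ± 0.31, 0.00011) were higher in pericyte-like nuclei (2.91% of all genes called higher), and PDGFRA (-3.25 ± 0.54, 1.3e-05) and PDGFD (-1.99 ± 0.37, 8.98e-05) were lower (4.60%). The PDGFRA difference was -3.86 without Du'an replicate 1. For PDGFRB the estimate was 1.06 ± 0.42 and did not pass after adjustment (adjusted p = 0.121), although the level was higher in 4 of 4 goats. Between smooth muscle-like nuclei and cluster 1 no member was called (adjusted p from 0.349 to 0.986), where 0.746% of all genes were called higher and 0.230% lower, and the largest estimate was that of PDGFRA at 0.84 ± 0.36. At an unadjusted p under 0.05 edgeR marked 1 member there, and 10.8% of all genes.

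**Figure D4:**
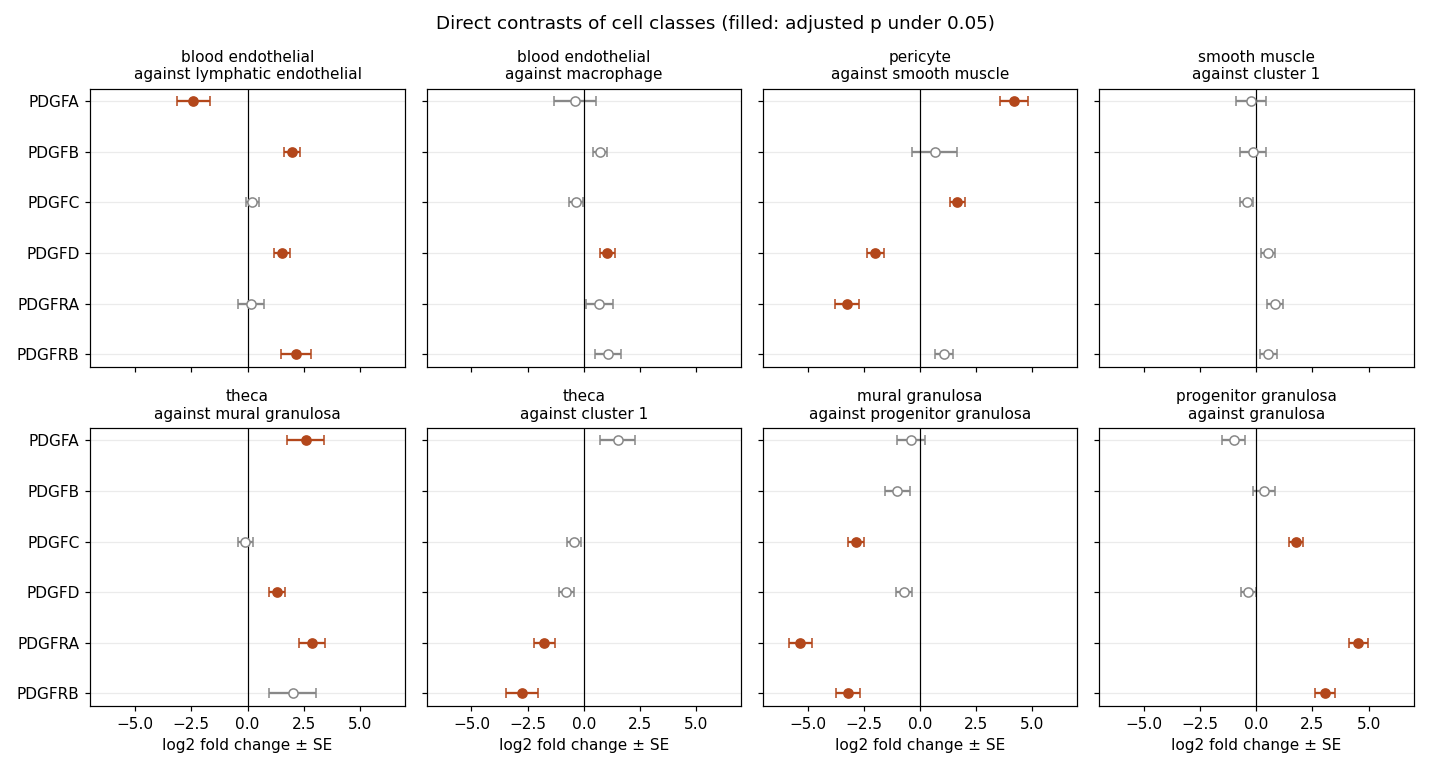
Log2 fold change with its SE for each member in 8 direct contrasts of cell classes, filled where the adjusted p was under 0.05. The SE was derived from the fold and its F value. PDGFB is not drawn for theca-like nuclei, which had no UMI of it. PDGFRA lies at -5.32 for mural against progenitor granulosa-like nuclei and at -3.25 for pericyte-like against smooth muscle-like nuclei.

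Around the follicle, theca-like nuclei, the androgen-making layer outside the granulosa, had more PDGFRA than mural granulosa-like nuclei (2.87 ± 0.59, adjusted p = 0.000184). Their PDGFRA level was 88.4, 44.0, 15.6 and 39.3 CPM, and the estimate was 3.84 without Nubian replicate 1, the goat with most mural granulosa-like nuclei. PDGFD (1.32 ± 0.37, adjusted p = 0.00691) and PDGFA (2.59 ± 0.82, 0.0179) were also higher, which makes 3 of 6 members against 6.63% of all genes. PDGFD lost its call without Nubian replicate 1 (adjusted p = 0.0511) or Nubian replicate 2 (0.116), and PDGFA without Du'an replicate 2 (0.119), Nubian replicate 1 (0.0524) or Nubian replicate 2 (0.185). Against cluster 1, theca-like nuclei had less PDGFRA (-1.75 ± 0.48, adjusted p = 0.0104) and PDGFRB (-2.75 ± 0.71, 0.00656), with 6.16% of all genes called lower and 3.29% higher. Both calls were lost without Nubian replicate 2 (adjusted p = 0.0577 and 0.075), and PDGFRB was at -3.51 without Nubian replicate 1.

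Mural granulosa-like nuclei, against progenitor granulosa-like ones, were lower in PDGFRA (-5.32 ± 0.51, adjusted p = 2.6e-12), PDGFRB (-3.21 ± 0.53, 2.85e-06) and PDGFC (-2.86 ± 0.36, 3.83e-09), against 13.1% of all genes. Progenitor granulosa-like nuclei were higher than granulosa-like ones in the same 3 genes, by 4.53 ± 0.42, 3.07 ± 0.46 and 1.75 ± 0.31 (adjusted p = 6.25e-13, 3.54e-07 and 8.02e-06), against 11.8% of all genes. The 2 contrasts share the progenitor sums. Without Du'an replicate 2 the receptor differences shrank to -4.19 and -2.29 in the first and 3.57 and 2.15 in the second contrast. Without Nubian replicate 1 they grew to -6.43 and -4.76 in the first, and that of PDGFRB to 3.69 in the second. With nuclei assigned singly by their markers the receptor differences were -2.73 and -1.29 (adjusted p = 1.35e-05 and 0.0428) in the first, and 3.24 and 2.20 in the second.

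The share of nuclei with at least 1 UMI was compared after every nucleus was thinned to 1000 UMIs, which left 34393 nuclei and set aside 10324 shallower ones. Cluster 1 kept 629 of 2014 and 174 of 451 nuclei in Du'an goats, and 928 of 2173 and 563 of 1843 in Nubian goats. Its shares therefore describe its deeper nuclei only. PDGFRA was seen in 15% to 20.7% of smooth muscle-like, 10.3% to 14.9% of cluster 1 and 3.17% to 21.9% of progenitor granulosa-like nuclei of the 4 goats. T or natural killer-like nuclei, which should lack the gene, gave a mean of 0.443%. PDGFRB was seen in 12.2% to 17.5% of pericyte-like nuclei (3 goats with at least 20 such nuclei of that depth), in 3.68% to 4.89% of smooth muscle-like and in 0 to 1.05% of T or natural killer-like nuclei. For PDGFB the 4 goats gave 5.39%, 6.39%, 4.36% and 5.63% in blood endothelial-like nuclei (exact 95% intervals of 3.22% to 8.38%, 4.47% to 8.82%, 2.64% to 6.72% and 2.46% to 10.8%), against 0 to 0.138% in granulosa-like nuclei. Intervals cover counting error only. Before thinning, nuclei had a median of 1932 UMIs in smooth muscle-like, 1958.5 in blood endothelial-like, 3504.5 in granulosa-like and 2235 in T or natural killer-like nuclei.

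PDGFC was seen in 43.8% to 69.0% of progenitor granulosa-like nuclei and in 50.6% to 65.6% of epithelial-like ones, with the lowest share, 6.68% to 14.4%, in T or natural killer-like nuclei. How much of that lowest share is free RNA was not tested. Taking 10% of nuclei in every goat as the limit, among 12 classes with enough deep nuclei in all 4 goats, PDGFC passed in 11 classes, PDGFD in 4 (smooth muscle-like, theca-like, cluster 1 and cluster 4) and PDGFRA in 2 (smooth muscle-like and cluster 1). PDGFA, PDGFB and PDGFRB passed in none. So of 144 ordered pairs of classes, PDGFC with PDGFRA passed in 22, and no other ligand and receptor did. At a limit of 1%, PDGFC with PDGFRA passed in 48 pairs, PDGFD with PDGFRB in 24, PDGFB with PDGFRA in 8, PDGFA with PDGFRA in 0 and PDGFB with PDGFRB in 4, the last from blood endothelial-like or macrophage-like nuclei to smooth muscle-like nuclei or cluster 1. Pericyte-like nuclei could not enter these counts because 1 goat had too few, and cluster 1 entered with its deeper nuclei only. The counts do not rank ligands, receptors or pairs against each other, because 1 limit was used for genes of very unlike totals. Kept nuclei held from 501 UMIs of PDGFA to 97784 of PDGFC, with 810 of PDGFB and 1375 of PDGFRB. Both receptors were seen in 8, 3, 5 and 2 thinned smooth muscle-like nuclei of the 4 goats.

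The wider pathway was described by a list of 67 measured genes of ligand processing, co-receptors, adaptors, downstream kinases, inhibitors and response genes. Blood endothelial-like nuclei had 28 of 67 higher and 6 lower (41.8% and 8.96%, against 18.7% and 8.82% of all genes), with a median log2 fold change of 0.28 against 0.01 over all genes. The 3 largest differences were those of HAS2, a hyaluronan synthase (3.63, adjusted p = 0.0213, at 3.19 ± 6.38 CPM, with UMIs in 1 of 4 goats), SPHK1, a sphingosine kinase (2.71, 3.64e-08), and GRB10, an adaptor (2.66 ± 0.17). PCSK6, a proprotein convertase, SRC and SPRY2 were lower, by -1.63, -1.62 and -0.86. In macrophage-like nuclei 27 were higher and 13 lower (40.3% and 19.4%, against 30% and 20.3%), led by the related receptors CSF1R (7.25 ± 0.19) and FLT3 (6.58 ± 0.31), both textbook myeloid genes, and by PLAU (5.58 ± 0.35), the urokinase that can cleave PDGF-D. PLAT, the plasminogen activator that cleaves PDGF-C, was lower there (-2.36, adjusted p = 0.000189), with PLCG1 (-2.30) and PCSK5 (-2.24).

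Smooth muscle-like nuclei had 16 higher and 5 lower (23.9% and 7.46%, against 18.4% and 6.36%). PDGFRL, a receptor-like gene, rose by 3.74 ± 0.32, PLAT by 3.12 ± 0.24 and GRB10 by 2.06 ± 0.18, and KIT, NRP1 and PIK3CB were lower by -0.90, -0.89 and -0.76. In pericyte-like nuclei 6 were higher and 5 lower (8.96% and 7.46%, against 7.25% and 3.26%), among them PDGFRL (2.99, adjusted p = 0.00144, at 11.8 ± 15.5 CPM), the inhibitor SPRY1 (2.28, 0.00677) and SPARC, a matrix protein that binds PDGF (1.58, 0.000117). FURIN, another convertase, had no UMI in the pericyte-like sums and was called lower (adjusted p = 0.00538), followed by PIK3CB (-1.37) and PTPN2 (-0.86).

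Progenitor granulosa-like nuclei had 19 higher and 6 lower (28.4% and 8.96%, against 18.4% and 11.3%), with KIT, the receptor of KIT ligand, at 3.73 ± 0.17, SPHK1 at 3.04 ± 0.32 and CBLB, a ubiquitin ligase, at 1.93 ± 0.12, and with SPRY1 (-2.06), FOSB (-1.21) and PLAT (-1.03) lower. In mural granulosa-like nuclei 10 were higher and 13 lower (14.9% and 19.4%, against 20.7% and 14.0%). PIK3R1 (2.30 ± 0.22) and NRP1 (1.49 ± 0.24) led upward and GRB10 (-3.53), SPRY1 (-3.05) and SOCS3 (-2.85) downward. DESeq2 called 39 instead of 23 genes of the list in that class, and 41.8% instead of 34.7% of all genes. Theca-like nuclei had 5 higher and 11 lower (7.46% and 16.4%, against 7.86% and 8.02%), with NRP1 (1.48), KIT (1.44) and GRB10 (1.01) higher and JUN (-1.69), FOS (-1.41) and YES1 (-1.19) lower.

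Likeness of pattern was measured by Pearson's r over the log2(CPM + 1) of the 62 sums, which share libraries and differ in depth, and is given without a test. The closest genes to PDGFRB were NEXN (0.85), CACNA1C (0.84), ACTA2 (0.82), CALD1 (0.82) and DLC1 (0.80), and to PDGFRA THBS1 (0.82), CNN1 (0.81), HTRA3 (0.79), CCBE1 (0.79) and FBN2 (0.77). PDGFB was closest to GRAP (0.83), IFNGR1 (0.82), MSN (0.82), TAL1 (0.81) and LOC108637674 (0.80). PDGFD was closest to CYTH3 (0.77), SYNPO2 (0.73), LRFN5 (0.72), PRDM6 (0.71) and GEM (0.71). For PDGFA they were ITGA7 (0.71), TBX2 (0.71), CDC14B (0.70), PLCE1 (0.66) and KLHL23 (0.65), and for PDGFC FARP1 (0.71), NF1 (0.66), FGFR2 (0.65), ITPK1 (0.65) and EXT1 (0.63). Among the members themselves r was 0.61 between the receptors, 0.57 between PDGFD and PDGFRA and 0.55 between PDGFD and PDGFRB, and between -0.24 and 0.17 for the other 12 pairs.

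The last comparison was that of the breeds, made in each of 14 classes with all 4 goats as 2 Nubian against 2 Du'an sums. Of 52 combinations of member and class that passed the filter on low counts, edgeR called 0 and DESeq2 called 0. In edgeR 4 of the 52 had an unadjusted p under 0.05, beside 3.99% of all genes tested over the 14 classes. These 4 are too few to be read as an excess, and 2 of them lay in T or natural killer-like nuclei. Over all genes tested, 4 genes (0.0351%) were called in cluster 4 and 0 (0.00%) in each other class. The 4 combinations were PDGFD in progenitor granulosa-like nuclei (1.02 ± 0.33, unadjusted p = 0.0201), PDGFRB in the same class (-1.68 ± 0.67, 0.0453), and PDGFD (-1.0 ± 0.35, 0.0256) and PDGFC (0.78 ± 0.28, 0.0277) in T or natural killer-like nuclei, positive values being higher in Nubian goats. Of all genes, 2.82% had such a p in progenitor granulosa-like and 12.8% in T or natural killer-like nuclei. The smallest adjusted p of any combination was 0.309.

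PDGFD in progenitor granulosa-like nuclei was 109 and 67.2 CPM in Du'an goats and 223 and 152 CPM in Nubian goats. In T or natural killer-like nuclei PDGFD was 107 and 73.0 against 50.9 and 33.5 CPM, and PDGFC 112 and 75.9 against 166 and 136 CPM. The breeds did not overlap in any of these, as in 29 of 84 combinations of member and class with 4 goats (34.5%), where the goats of the breeds did not overlap for 27.6% of all tested genes and classes. PDGFRA was lower in Nubian goats in 9 of 11 classes tested, at a median log2 fold change of -0.58, PDGFRB in 6 of 7 (-0.33), PDGFC in 7 of 14 (-0.02), PDGFD in 7 of 14 (-0.19), PDGFA in 3 of 3 (-1.29) and PDGFB in 1 of 3 (0.48), where the classes of a goat are not independent. The median over all genes of a class lay between -0.03 and 0.06. In progenitor granulosa-like nuclei, without the filter on low counts, PDGFRA (-1.29, adjusted p = 0.0138) and PDGFRB (-1.64, 0.0429) passed, as did 1.24% of all genes there. For PDGFRA the breeds overlapped, at 72.3 and 431 CPM in Du'an against 51.3 and 150 CPM in Nubian goats. Its edgeR estimate in the main fit was -1.34 ± 0.87 (unadjusted p = 0.175), against an SE of 0.34 without the filter. PDGFRB was at 9.08 and 27.3 against 3.35 and 7.28 CPM, without overlap. Without Du'an replicate 2, which left 1 Du'an goat, the PDGFC estimate in theca-like nuclei was -1.36. The remaining Du'an goat was at 717 CPM and the goat left out at 253 CPM, beside 250 and 275 CPM in the Nubian goats.

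**Figure D5:**
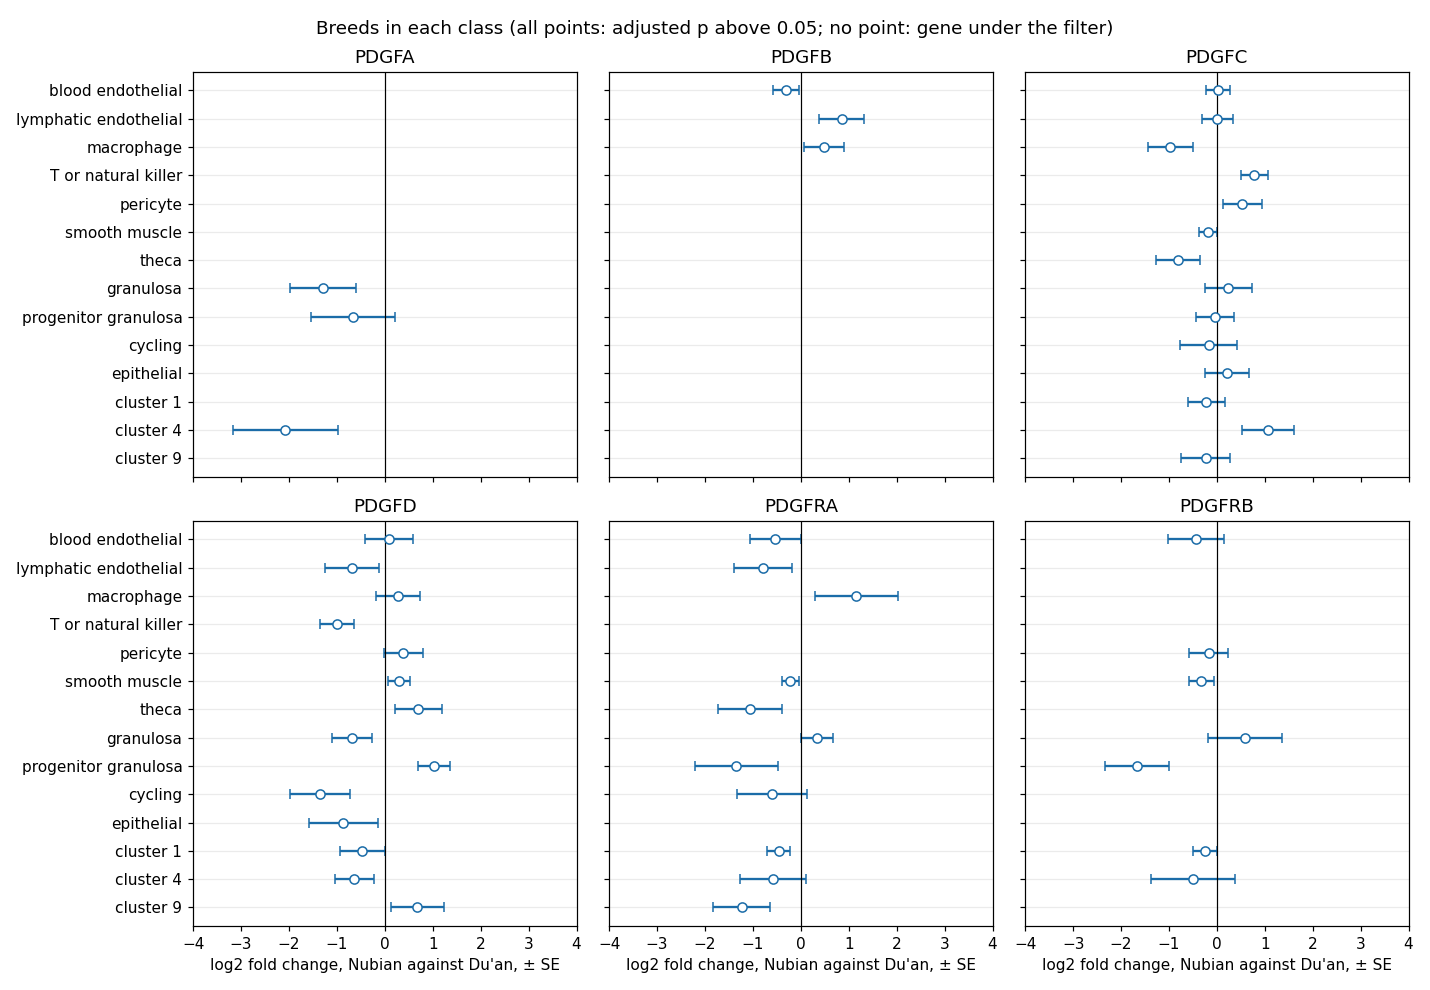
Log2 fold change of Nubian against Du'an goats with its SE in each class with all 4 goats, 1 panel per member. Points are drawn where the gene passed the filter on low counts. The SE was derived from the fold and its F value. All 52 points had an adjusted p of 0.309 or more, and they lie on both sides of 0, with 19 above and 33 below.

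Whether the breed difference itself varied between classes was tested in 1 fit of the 14 classes with the goat as a block. Of 13382 genes 1 was called, and none of the members was. PDGFD had the smallest p (unadjusted p = 0.0046, adjusted p = 0.504), and the adjusted p of the other members was 1.00. With the goat as a block, these p-values rest on how the 2 goats of a breed differ from class to class. The classes of a goat were taken as independent.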

How the data were processed

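Nuclei of 4 goat ovaries were profiled with 10x Chromium 3' chemistry, and for each library the authors deposited raw UMI counts of genes in single nuclei, made with Cell Ranger 5.0.0 and used with Seurat according to the submitters' processing notes. Nuclei outside 2 SD of the mean UMI or gene number, or with over 20% mitochondrial UMIs, were left out, as the study's methods describe. Counts were scaled to 10000 UMIs, and 2000 variable genes without the 6 members and the pathway list, 30 principal components and 20 neighbours were used for Leiden clustering at a resolution of 0.8 (scanpy 1.11.5, leidenalg 0.10.2, igraph 0.11.9, Python 3.11.15). Clusters were named from their leading marker list, needing at least 3 raised markers and a mean log2 difference of at least 0.5. A cluster with a median depth under 0.5 of that of its libraries, and no marker of that list among its leading genes, was left unnamed. This rule on shallow clusters withheld a name from clusters 1 and 9. Doublet scores came from Scrublet, and the 155 nuclei it called were left out.

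Raw counts were summed per goat and class with at least 20 nuclei and tested with edgeR 4.0.16 (quasi-likelihood, TMM scaling, its filter on low counts, goat as a block in class contrasts, R 4.3.3, limma 3.58.1), with calls at an adjusted p under 0.05. DESeq2 1.42.0, other scaling, filters, sums, resolutions, a marker gate and leaving out each goat were the alternatives. The edgeR tests were run on simulated counts, drawn for each sum on its own without a goat effect. Only well-counted genes were changed there. That check therefore does not cover sums that share a goat, sparse genes or classes at 0. Shares of nuclei with a UMI were taken after thinning to 1000 UMIs, with exact binomial 95% intervals (scipy 1.17.1), and the floor for a count of 0 was 3 UMIs. Intervals and floors cover counting error only. In the breed tests of single classes, p-values measure the spread between these 4 goats. In fits with the goat as a block, they measure the spread left after the level of each goat is taken out. That spread is pooled over all classes, with the sums of a goat taken as independent. It is therefore not the spread between goats in 1 class.

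The members, marker lists and pathway list were chosen with earlier results of these data known, so that none of them is independent evidence. Named genes were the 6 members in every class, up to 3 called pathway genes in each direction with the largest log2 fold change in a class, and the 5 genes with the highest Pearson r to each member. Some genes that this rule names are not reported here. Of the 69 pathway genes, 67 were measured. Theca or fibroblast against stromal and mural against cumulus contrasts were planned and not run, since no class was named stromal or cumulus. The 4 direct contrasts that involve cluster 1, granulosa-like or macrophage-like nuclei, the description of nuclei with 10 or more PDGFRA UMIs, the fit of breed within class and the fit without theca and ciliated sums were added after the values were seen.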

Additional observations from a re-analysis of the deposited data

Results flagged for a closer look

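In 8 of 84 combinations of member and class with 4 goats, 1 goat stood apart from the other 3 by most of the whole range. Chance would give about 5% for 4 independent values of like spread. These sums differ in size and share goats, and no share over all genes stands beside the count. It is therefore not read against that 5%. PDGFA in granulosa-like nuclei was 8.57 CPM in Du'an replicate 1 and 1.74 to 2.79 CPM in the others. PDGFB was 56.0 CPM in macrophage-like nuclei of Nubian replicate 1, against 30.5 to 33.8 CPM, and 4.20 CPM in progenitor granulosa-like nuclei of Du'an replicate 2, from 6 UMIs, against 0.744 to 0.970 CPM. PDGFC in theca-like nuclei was 717 CPM in Du'an replicate 1, from 44 nuclei, against 250.4 to 275 CPM. PDGFD was 409 CPM in cycling nuclei of Du'an replicate 1, against 85.0 to 104 CPM, and 711 CPM in smooth muscle-like nuclei of Nubian replicate 1, against 511 to 528 CPM. PDGFRA in cluster 9 was 136 CPM in Du'an replicate 1, from 14 UMIs, against 27.0 to 40.0 CPM. PDGFRB in epithelial-like nuclei was 21.2 CPM in Nubian replicate 1, from 2 UMIs in 33 nuclei, against 0 to 0.923 CPM. The causes were not tested.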

How the results depend on the processing

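Of 890 recomputed values, 803 kept their direction and side of the threshold, 81 kept the direction and lost the call, 1 gained one and 5 changed sign. With nuclei assigned singly by markers, PDGFRA turned to 0.25 in granulosa-like and 0.80 in mural granulosa-like nuclei, PDGFD to 0.20 in mural granulosa-like and PDGFA to 0.29 in progenitor granulosa-like nuclei. At a resolution of 0.4 the breed difference of PDGFD in progenitor granulosa-like nuclei was -0.25. At that resolution the class held 6958 instead of 2876 nuclei, with both RUNX2 and AJAP1, a leading gene of cluster 4, among its leading genes. The smooth muscle-like class then held 9571 instead of 2606 nuclei. The causes were not tested. Breed calls of members numbered 2 without the filter on low counts (in progenitor granulosa-like nuclei, where 1.24% of all genes were called). Leaving out a goat left 1 goat in a breed, so breed calls of those fits are not counted here. The replicate block, from numbers that did not pair the samples (r from -0.14 to 0.10 between same-numbered goats), gave 0 breed calls. DESeq2 called 39 pathway genes in mural granulosa-like nuclei, and 41.8% of all genes. Over the alternatives run, PDGFB stayed called in blood endothelial-like (4.33 to 5.21) and macrophage-like (3.56 to 4.33), PDGFRB in pericyte-like (4.17 to 5.32) and PDGFRA in smooth muscle-like (3.58 to 4.10) and progenitor granulosa-like nuclei (2.93 to 4.21). PDGFA, with 501 UMIs in all kept nuclei, and PDGFB, with 810, rest on the fewest counts of the 6 members.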
